A study of Mus musculus with 48 samples.

Results

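Cytb, Cox2 and Atpase6 are 3 of the 30743 gene rows counted in 48 RNA sequencing libraries of mouse heart muscle cells, and they are the only 3 rows found when 43 spellings of mitochondrially encoded protein and ribosomal RNA genes were searched. They were chosen by those names and not by their values, and all 3 were counted in every library and passed the filter on low counts in every comparison. Over the 48 libraries they took on average 6.33% (Cytb), 4.40% (Cox2) and 4.96% (Atpase6) of all counts, so that between 6.20% and 24.8% of a library came from these 3 rows. Cytb ranked between 2 and 4 among all rows of a library, Cox2 between 2 and 6, and Atpase6 between 3 and 7.

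The cells were cardiomyocytes isolated after removal of the atria and the right ventricle, from mitochondrial-nuclear exchange (MNX) mice and their wild-type strains, C57BL/6J (C57) and C3H/HeN (C3H). An exchange mouse carries the nuclear genome of one strain and the mitochondrial genome of the other. The names give the nucleus (n) and then the mitochondria (mt), so that C57n:C57mt and C3Hn:C3Hmt are the wild types and C57n:C3Hmt and C3Hn:C57mt the exchanges. All groups are labelled with day 3 after sham surgery or ACF, an abbreviation that commonly stands for aortocaval fistula, a shunt that overloads the heart with volume. No other allele or agent is named for any group. In 24 libraries the title carries the surgery (set A, 3 sham and 3 ACF libraries for each of the 4 genotypes), and in the other 24 it does not (set B, all labelled sham, 6 libraries for each genotype).

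The mitochondrial genome of the mouse is a small circle that is transcribed from both strands as long precursors, which are cut at the transfer RNAs into separate messengers that carry short poly(A) tails. Cytb encodes cytochrome b, the mitochondrially made core subunit of respiratory complex III. Cox2 here is subunit II of cytochrome c oxidase (complex IV), which holds the copper centre that takes electrons from cytochrome c, and it is not the cyclooxygenase gene Ptgs2, which has a row of its own. Atpase6 encodes the subunit of ATP synthase that forms the proton channel together with the c ring. Heart muscle is among the tissues richest in these messengers. Each product is built into a complex that also holds subunits made from nuclear genes, and these are the transcripts by which the exchanged genome itself is read out.

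Copies of mitochondrial genes lie in the nuclear chromosomes, and reads from either source cannot be told apart where the copy is identical. In the GENCODE annotation of the GRCm38 build the pseudogene Gm28661 on chromosome 1 is identical to mt-Co2 (the reference name of Cox2) over 681 of its 684 bases, and Gm10925 on chromosome 1 is identical to mt-Atp6 (Atpase6) over 678 of 681 bases. The nearest annotated copy of mt-Cytb found in the search, Gm11410 on chromosome 4, differs at 82 of 1143 bases. Of the 1094 stretches of 50 bases along it 0 are identical to mt-Cytb. To show that contrast, the 120 bases that start at base 300 of the coding sequences are given here, 5′ to 3′, with capitals at the bases where mt-Cytb and its nearest copy differ. No such base exists between mt-Co2 and Gm28661, or between mt-Atp6 and Gm10925, so each of those pairs is printed once.
mt-Cytb: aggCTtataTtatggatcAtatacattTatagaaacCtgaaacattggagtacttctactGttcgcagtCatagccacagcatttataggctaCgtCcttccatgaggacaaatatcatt
Gm11410: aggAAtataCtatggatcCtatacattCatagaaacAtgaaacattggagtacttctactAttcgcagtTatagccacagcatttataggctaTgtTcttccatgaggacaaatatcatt
mt-Co2: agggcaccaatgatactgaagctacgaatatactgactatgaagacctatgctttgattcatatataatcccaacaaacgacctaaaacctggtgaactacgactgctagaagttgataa
mt-Atp6: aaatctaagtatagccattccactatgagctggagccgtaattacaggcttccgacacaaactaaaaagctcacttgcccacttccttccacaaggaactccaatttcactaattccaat
The first 2 lines differ at 10 of 120 bases. Of these annotated copies, Gm28661, Gm10925 and Gm11410 have no row in the count table, while Gm10222, identical to mt-Nd4l over 294 of 297 bases, has one and took 4.71% of the counts on average. For Cox2 and Atpase6 the mitochondrial gene and its nuclear copy are thus not separated by the table. The values of all 3 rows were fractional in all 48 libraries, as estimated counts can be. Which other sequences shared their reads was not examined.

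Total counts per library ran from 15.89 M to 26.09 M, and the lowest count of any of the 3 transcripts was 407362. Counting error was small beside the differences between libraries: the lowest Cytb share, 2.13% in library 14, had an exact 95% Clopper-Pearson interval of 2.119% to 2.131%, which covers counting error only. The defining markers of the labelled cell type were present, and 13 of 13 cardiomyocyte genes summed to 43510 to 120511 CPM (counts scaled to the library's total) in every library but library 489 (C57n:C57mt, ACF), where they summed to 8349 CPM and 7 erythrocyte genes to 54941 CPM. The nuclear expression profile was scored per library as the median over 35 genes that were higher in C3Hn:C3Hmt than in C57n:C57mt of set B, scaled so that 0 is the C57 and 1 the C3H mean. The 12 set A libraries with an exchanged label scored opposite to the nucleus named in the label: those labelled C57n:C3Hmt lay between 0.842 and 0.999, and those labelled C3Hn:C57mt between -0.0188 and 0.0643. The strain that opens their titles matched the score, so set A libraries are called by their label or their title below and each direction drawn from an exchanged label of set A carries that doubt. Scores of the exchanged set B libraries followed the nuclear label (-0.0132 to 0.0414 for C57n:C3Hmt and 0.99 to 1.04 for C3Hn:C57mt).

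In the sham libraries of set A, Cytb shares fell into 2 ranges that did not overlap. Wild-type C57n:C57mt libraries had 8.92%, 9.67% and 9.89% Cytb, and C3Hn:C3Hmt libraries had 6.80%, 7.78% and 7.80%. The libraries labelled C3Hn:C57mt, whose titles begin with C57, had 9.70%, 10.3% and 11.1%, and those labelled C57n:C3Hmt, whose titles begin with C3H, had 6.38%, 6.80% and 6.92%. All 6 libraries with C57 titles were thus above all 6 with C3H titles, as 21.9% of all 13440 genes were on one side or the other in these libraries. Cox2 behaved the same way, with 5.08% to 6.40% under C57 titles and 4.00% to 4.87% under C3H titles. For Atpase6 the ranges met, at 6.26% to 7.67% and 5.40% to 6.44%.

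After scaling by TMM (trimmed mean of M values, which sets most genes level between libraries), the log2 difference of C3H from C57 titles was -0.90 ± 0.295 (SE) for Cytb, -0.75 ± 0.258 for Cox2 and -0.68 ± 0.278 for Atpase6. None passed edgeR's quasi-likelihood test at an adjusted p of 0.05, with 0.0681, 0.0837 and 0.171 over all 13440 genes, where 8.39% of the genes were called. DESeq2 called all 3, at adjusted p of 0.000208, 0.000197 and 0.00593, where it called 11% of all genes. Without library 489, which enters only through the shared spread, edgeR called them too, at adjusted p of 0.00165, 0.0025 and 0.0114. Without library 6756 it called Cytb (0.0392) and Cox2 (0.0489), and without library 490 Cytb (0.0348). Taken by the labels, the same libraries give C3H minus C57 mitochondria of -0.87 ± 0.418 (Cytb), -0.65 ± 0.364 (Cox2) and -0.61 ± 0.393 (Atpase6) on C57n, with 3.65% of genes called, and -0.92 ± 0.418, -0.84 ± 0.365 and -0.75 ± 0.394 on C3Hn, with 3.97% called. Scaled by library size alone the title comparison shrank to -0.49, -0.34 and -0.27, with none called and the median of all genes at 0.381. None of the 6 values taken by the labels was called by edgeR with all libraries, and without library 489 Cytb (adjusted p 0.0302) and Cox2 (0.0233) on C3Hn were. DESeq2 called 3 of them: Cytb on C57n (adjusted p 0.0486) and on C3Hn (0.0257), and Cox2 on C3Hn (0.0102), with 4.85% of all genes called on C57n and 5.57% on C3Hn. As labelled, C3H minus C57 nucleus in set A gave 0.27 to 0.28, with 0.00744% of genes called and none of the 3 among them.

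**Figure D1:**
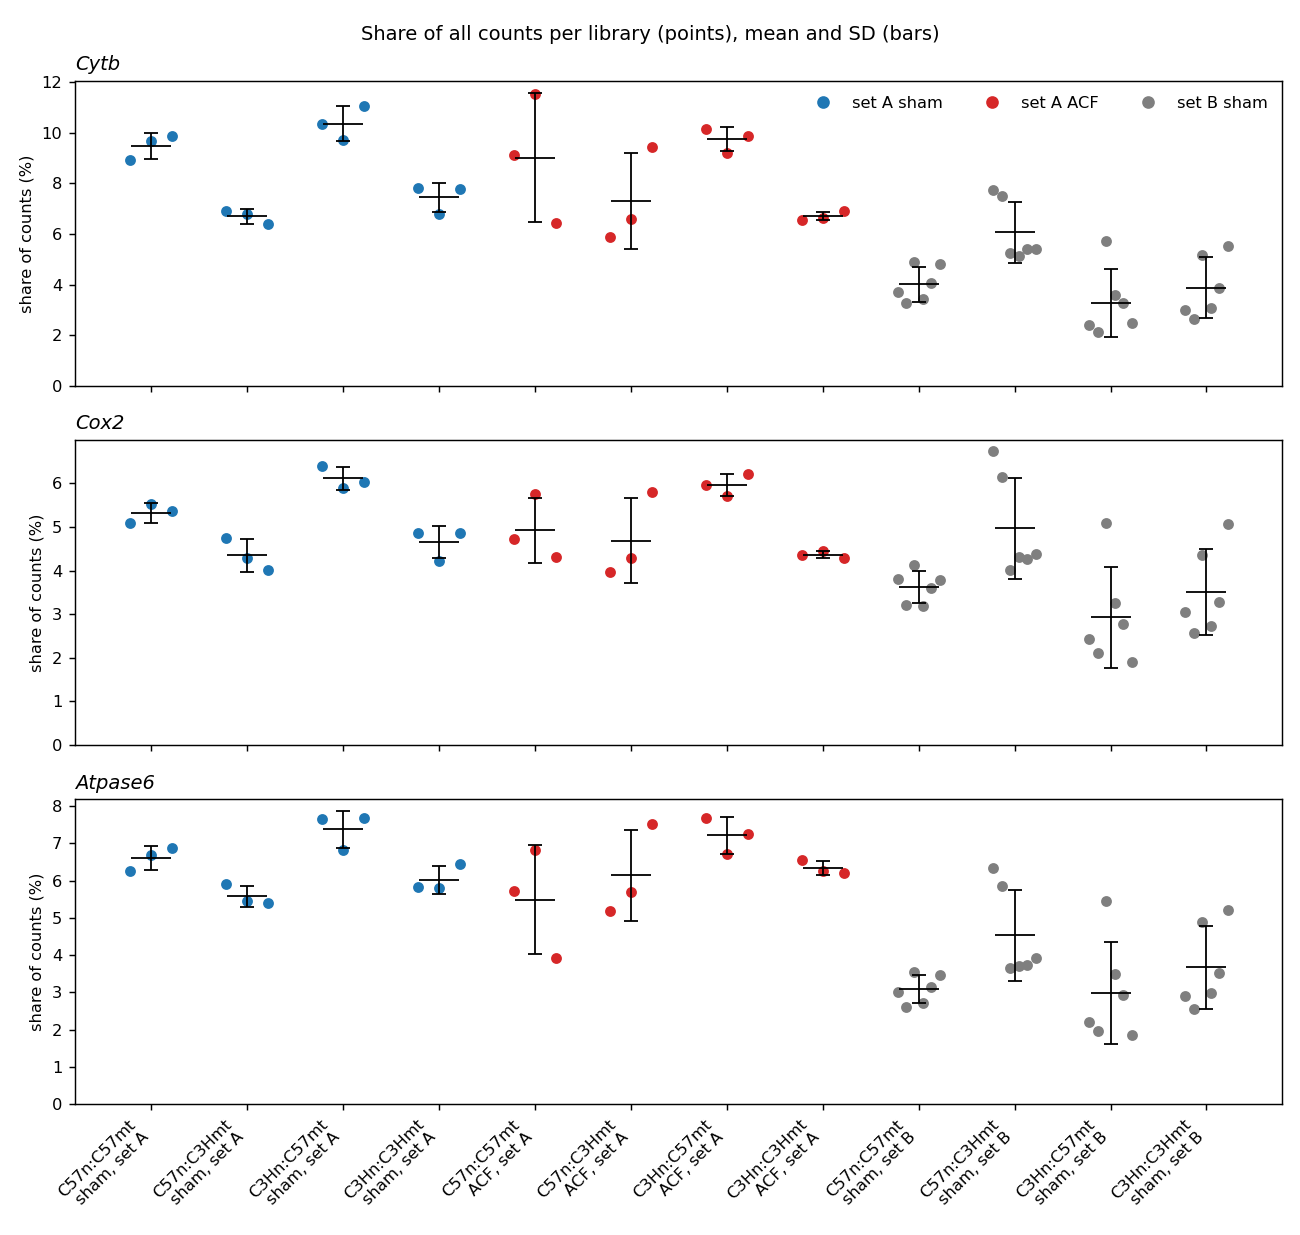
Share of all counts (%, vertical axes from 0) of Cytb, Cox2 and Atpase6 for each of the 12 groups on the horizontal axis, with 1 point per library and a bar for the mean and SD. Set B libraries lie mostly below set A libraries for Cytb and Atpase6, and the sets overlap widely for Cox2. In set A the libraries with C57 titles (labelled C57n:C57mt and C3Hn:C57mt) lie above those with C3H titles for Cytb in the sham groups.

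After ACF surgery no difference in the shares of the 3 transcripts stood out from the spread between libraries. With 3 libraries per group this does not show that they were unchanged. In C57n:C57mt the ACF libraries had 6.43%, 9.11% and 11.5% Cytb, the widest range of any set A group, against 8.92% to 9.89% in sham. In C3Hn:C3Hmt the ACF libraries had 6.57%, 6.65% and 6.90% against 6.80% to 7.80%. The libraries labelled C3Hn:C57mt had 9.22%, 9.87% and 10.2% after ACF, and those labelled C57n:C3Hmt had 5.88%, 6.61% and 9.45%. In all 12 combinations of transcript and genotype the ACF and the sham libraries overlapped, as they did for all but 11.5% of the combinations of gene and genotype over all genes. The 11.5% of library 489 and the 9.45% of library 6756 were the highest values of their groups. In library 6756 the cardiomyocyte genes summed to 46491 CPM and the fibroblast genes to 949 CPM, beside 43510 to 86448 CPM and 235 to 510 CPM in the sham libraries of set A. The part of those markers in the 2 values was not tested, and CPM and shares divide the same library total.

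Averaged over the 4 genotypes, ACF minus sham was 0.015 ± 0.207 (SE) for Cytb, 0.019 ± 0.181 for Cox2 and 0.037 ± 0.196 for Atpase6 on the log2 scale, with adjusted p of 0.993, 0.987 and 0.971 and 0.275% of all genes called. Without library 489 the signs changed, to -0.09, -0.06 and -0.06, again with none called. As shares, ACF and sham averaged 8.20% ± 1.88 and 8.5% ± 1.61 (SD, n = 12 each) for Cytb, a difference of -0.307 percentage points (exact permutation test within genotype, 2-sided, p = 0.53). Cox2 differed by -0.126 points (p = 0.54) and Atpase6 by -0.0967 points (p = 0.76) in the same exact permutation test. Within single genotypes the log2 differences ran from -0.28 ± 0.392 (Atpase6, C57n:C57mt) to 0.30 ± 0.392 (Atpase6, labelled C57n:C3Hmt), and none was called. Single libraries moved these values: without library 489 C57n:C57mt was at -0.49 for Cytb, -0.45 for Cox2 and -0.65 for Atpase6, and without library 490 at 0.2, 0.05 and 0.001. Without library 6756 the group labelled C57n:C3Hmt was at -0.11, -0.08 and -0.04, and none of the 3 transcripts was called in any of these fits. In those 4 comparisons 0% of genes were called, except 0.00744% (1 gene) in C57n:C3Hmt. Zero calls came with 2030 genes at an unadjusted p below 0.05 in C57n:C57mt, 951 in C3Hn:C3Hmt and 274 in C3Hn:C57mt, and DESeq2 called 175, 82 and 1. The count of 0 in C57n:C57mt became 688 without library 490 and 874 without library 465, and that in C3Hn:C3Hmt became 69 without library 489. The differences of the ACF response between genotypes ran from -0.19 to 0.58 over the 3 transcripts and 3 contrasts, with 0% of genes called by edgeR, 351 to 920 at an unadjusted p below 0.05 and 0, 1 and 0 called by DESeq2. In bulk RNA a difference in the number of cells of a type and a difference in RNA per cell cannot be told apart.

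Set B carried less of all 3 transcripts than set A. Sham libraries had 4.31% ± 1.51 Cytb in set B (SD, n = 24) and 8.5% ± 1.61 in set A (n = 12). The ranges, 2.13% to 7.74% and 6.38% to 11.1%, overlapped. Cox2 had 3.76% ± 1.19 and 5.11% ± 0.758, and its set B range of 1.91% to 6.74% spanned the set A range of 4.0% to 6.4%. Atpase6 had 3.57% ± 1.2 and 6.39% ± 0.771, with ranges of 1.85% to 6.34% and 5.4% to 7.67% that overlapped. Only the pair of C57n:C3Hmt libraries 7 and 8 of set B reached the set A range for Cytb.

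On the log2 scale set B minus set A was -1.45 ± 0.157 for Cytb, -0.91 ± 0.153 for Cox2 and -1.30 ± 0.165 for Atpase6 (edgeR, adjusted p = 2.01e-09, 5.55e-06 and 4.58e-08). All 3 were called lower, in a comparison where 59.4% of 13869 genes were called and 28.2% called lower. Scaling by library size alone gave -1, -0.46 and -0.85, all called, with the median of all genes at 0.51 where TMM put it at 0.0187. By permutation within genotype the differences in share were -4.19 points for Cytb (p = 1e-05, the smallest 100000 resamples can give), -1.35 points for Cox2 (p = 0.00095) and -2.82 points for Atpase6 (p = 1e-05). Rn45s, the ribosomal RNA precursor, moved the other way between the sets, from 0.0204% to 0.0564% of counts in set A to 0.225% to 0.737% in set B. The sets share no library, and set cannot be told apart from whatever differed in how the 2 sets were made.

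The 3 transcripts did not fall by the same amount, so their ratios differed between sets. Per kilobase of reference coding sequence (1144, 684 and 681 bases), set A libraries had on average 7.30% Cytb, 7.38% Cox2 and 9.32% Atpase6, and Atpase6 was the highest of the 3 in 22 of 24 libraries. Set B libraries had 3.77%, 5.49% and 5.24%, Cox2 was the highest in 17 of 24 and Atpase6 in the other 7, and Cytb the lowest in all 24. The gene lengths behind the authors' counts are not given in the sources used here, so this order holds for the reference lengths only. Counts of Cytb per count of Cox2 were 1.46 to 2.00 in set A (sham and ACF) and 0.977 to 1.31 in set B (all sham). These 2 ranges did not overlap, and how many ratios of other genes separate the sets was not examined.

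Within set B the exchanged C57n:C3Hmt libraries stood highest in median share. They had 5.15% to 7.74% Cytb (median 5.41%, n = 6), and wild-type C57n:C57mt libraries had 3.26% to 4.88% (median 3.89%, n = 6), with no overlap. Atpase6 did not overlap either, at 3.66% to 6.34% (median 3.83%) and 2.61% to 3.55% (median 3.09%), while for Cox2 the ranges 4.01% to 6.74% (median 4.35%) and 3.19% to 4.12% (median 3.70%) met. Of all 13395 genes 7.88% had shares that did not overlap between the same 12 libraries. The 3 transcripts moved together across set B, with correlations of log2 CPM of 0.968 to 0.985 over 24 libraries, so they are not 3 separate observations. Marker genes differed between the 2 groups as well: 10 of 10 macrophage genes summed to 51 to 89 CPM (median 70) in C57n:C3Hmt and to 92 to 253 CPM (median 136) in C57n:C57mt, with no overlap. The 8 fibroblast genes summed to 143 to 280 CPM (median 221) and 224 to 473 CPM (median 425), the 8 endothelial genes to 330 to 628 CPM (median 483) and 438 to 1139 CPM (median 815), and the 13 cardiomyocyte genes to 60201 to 100060 CPM (median 92659) and 93749 to 107711 CPM (median 101003). The part of these markers in the difference was not tested, and CPM and shares divide the same library total.

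On the C3H nucleus the 2 mitochondrial genomes overlapped widely: Cytb was 2.65% to 5.51% (median 3.47%) in C3Hn:C3Hmt and 2.13% to 5.73% (median 2.87%) in C3Hn:C57mt. The order of the group medians was thus C57n:C3Hmt, C57n:C57mt, C3Hn:C3Hmt, C3Hn:C57mt for Cytb, and the last 3 overlapped with each other. The highest libraries of C3Hn:C3Hmt and C3Hn:C57mt, at 5.51% and 5.73%, also lay inside the C57n:C3Hmt range of 5.15% to 7.74%.

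C3H minus C57 mitochondria on the C57 nucleus was 0.97 ± 0.303 (Cytb), 0.85 ± 0.293 (Cox2) and 0.95 ± 0.321 (Atpase6) on the log2 scale. Unadjusted p were 0.00354, 0.00771 and 0.00643, but none held over 13395 genes in edgeR (adjusted p = 0.270, 0.305 and 0.300), and 0% of genes were called, with 1509 at an unadjusted p below 0.05 and 15 called by DESeq2. On the C3H nucleus the values were 0.24 ± 0.300, 0.25 ± 0.291 and 0.29 ± 0.318, with 0.00747% of genes called. They became 0.61, 0.62 and 0.69 without library 15 and 0.05, 0.05 and 0.1 without library 24, with none called. The mean over both nuclei was 0.61 ± 0.213, 0.55 ± 0.207 and 0.62 ± 0.226 (adjusted p = 0.914 for each, 0% of genes called, 549 at an unadjusted p below 0.05 and 1 by DESeq2). The mitochondrial difference on C3Hn was lower than that on C57n by -0.73 ± 0.425, -0.60 ± 0.412 and -0.66 ± 0.450, which edgeR did not call, and 0% of genes were called, with 2188 at an unadjusted p below 0.05 and 331 by DESeq2.

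The test of the share alone, which is not adjusted over other genes, gave a different call. On the C57 nucleus the C3H mitochondria went with 2.05 points more Cytb, 1.35 points more Cox2 and 1.45 points more Atpase6, with adjusted p of 0.0065, 0.013 and 0.0065 over the 6 share comparisons of a transcript (exact permutation test, 2-sided, 6 against 6; raw p = 0.0022, 0.0043 and 0.0022, of which 0.0022 is the smallest this design allows). On the C3H nucleus the differences were 0.612, 0.576 and 0.694 points (exact permutation p = 0.4, 0.36 and 0.33). Over both nuclei they were 1.33, 0.964 and 1.07 points (exact permutation p = 0.012, 0.025 and 0.025, adjusted 0.018, 0.037 and 0.049). A share depends on every other abundant transcript of its library. Scaled by library size alone, Cytb on the C57 nucleus was also called by edgeR (0.60 ± 0.218, adjusted p = 0.0373), with the median of all genes at -0.335.

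The titles carry a code of L and a digit whose meaning the labels do not state, and in set B it runs with the genotype. All 6 C57n:C57mt libraries are L8 and all 6 C3Hn:C3Hmt libraries are L3, while C57n:C3Hmt has 4 of L2 and 2 of L8, and C3Hn:C57mt has 4 of L2 and 2 of L3. Inside C57n:C3Hmt the code split the values: the L8 libraries 7 and 8 had 7.74% and 7.50% Cytb, and the L2 libraries 9 to 12 had 5.25%, 5.15%, 5.40% and 5.41%. For Cox2 the L8 libraries had 6.74% and 6.14% and the L2 libraries 4.01% to 4.38%. For Atpase6 they had 6.34% and 5.86%, against 3.66% to 3.92%. No transcript overlapped between the codes there (exact permutation test, 2-sided, p = 0.067 for each, the smallest that 2 against 4 allows). In the same libraries 55.7% of all genes did not overlap between the codes. The cardiomyocyte genes summed to 60201 and 64580 CPM in the L8 libraries and to 92589 to 100060 CPM in the L2 libraries, and the erythrocyte genes to 39 to 48 and 29 to 63 CPM. CPM and shares divide the same library total, so where the 3 transcripts take more, less is left for other rows. The 3 together took 19.5% and 20.8% of counts in the L8 libraries and 12.9% to 13.7% in the L2 libraries. What part these marker levels had in the split was not tested. Inside C3Hn:C57mt the L2 libraries 13 to 16 had 2.42%, 2.13%, 5.73% and 3.60% Cytb and the L3 libraries 17 and 18 had 3.27% and 2.47%, which overlapped.

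Compared within L8, the mitochondrial difference on the C57 nucleus was larger than over all libraries. That follows from leaving out the 4 lower L2 libraries of C57n:C3Hmt, so it rests on libraries 7 and 8 and is no separate check. Within L8 the 2 C57n:C3Hmt libraries exceeded all 6 C57n:C57mt libraries by 3.60 points of Cytb, 2.82 of Cox2 and 3.01 of Atpase6 (exact permutation test, p = 0.036 for each, the smallest that 2 against 6 allows, and 0.17 adjusted over the 5 comparisons by code), and 58.9% of all genes did not overlap between those libraries. Within L3 the 6 C3Hn:C3Hmt libraries differed from the 2 C3Hn:C57mt libraries by 1.01, 1.16 and 1.29 points, with overlap (exact permutation p = 0.32, 0.18 and 0.18). Within L2 the 4 C3Hn:C57mt libraries were lower than the 4 C57n:C3Hmt libraries by -1.83, -1.02 and -0.485 points, again with overlap (exact permutation p = 0.14, 0.2 and 0.54). These splits by code were chosen after the values were seen. As a factor added to the genotypes, the code gave an F of 3.17, 4.94 and 4.75 for Cytb, Cox2 and Atpase6 in set B. In edgeR's quasi-likelihood test the adjusted p was 0.546 for Cytb and 0.544 for the other two, with 0.00747% of genes called. In set A, where each genotype spans 3 to 6 codes, F was 0.261, 0.211 and 0.21 (edgeR, adjusted p = 0.98 to 0.988), and 0.00744% of genes were called.

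**Figure D2:**
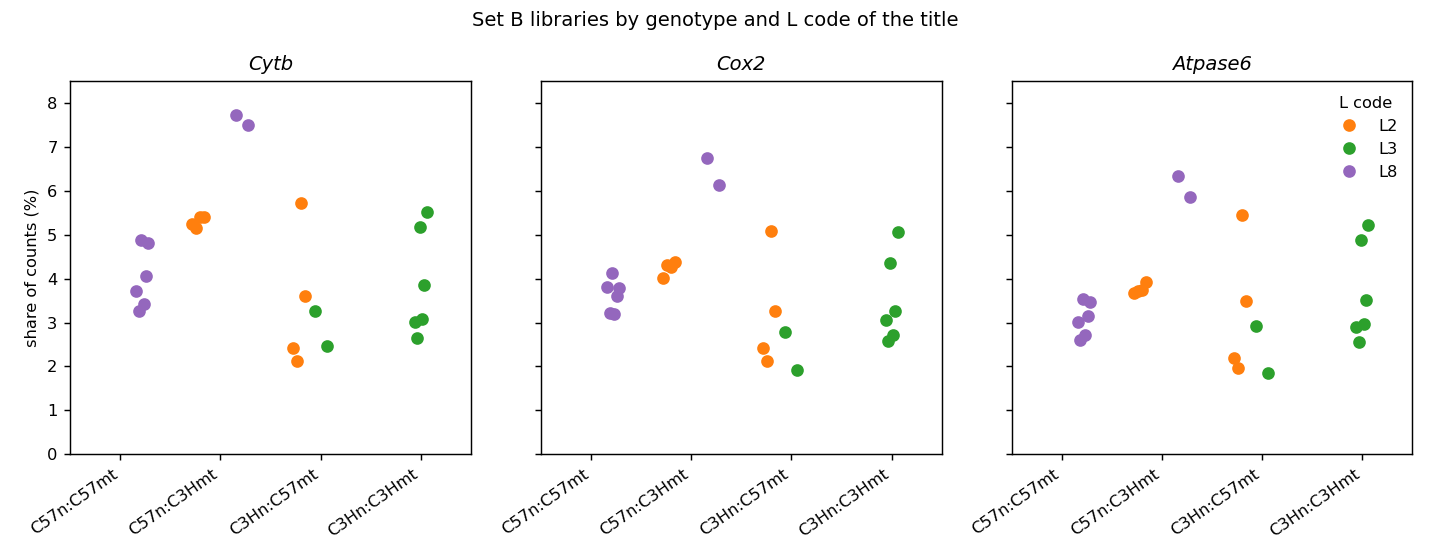
Share of counts (%, from 0) of each transcript in the 24 libraries of set B by genotype (horizontal axis) and L code (colour), 1 point per library. The L8 libraries of C57n:C3Hmt stand at the top, and C57n:C57mt and C3Hn:C3Hmt each hold 1 code only.

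The C3H nucleus of set B went with less Cytb. The 12 C3Hn libraries had 3.58% ± 1.25 Cytb and the 12 C57n libraries 5.05% ± 1.42 (SD), with ranges of 2.13% to 5.73% and 3.26% to 7.74% that overlapped. The log2 difference, C3Hn minus C57n, was -0.56 ± 0.213 for Cytb, which edgeR called lower (adjusted p = 0.0428), and -0.49 ± 0.206 for Cox2 (0.0643) and -0.27 ± 0.225 for Atpase6 (0.385), which it did not. With 35.7% of all genes called and 16.8% called lower, 1 of 3 is near the background. The Cytb call was lost in 14 of the 24 fits that left out 1 library (edgeR, adjusted p up to 0.0868), and with the L code in the model the direction turned for all 3 transcripts, to 0.38, 0.61 and 0.91, with none called. As shares the differences were -1.47 points of Cytb (exact permutation within mitochondria, p = 0.0058, adjusted 0.012), -1.08 of Cox2 (exact permutation p = 0.013, adjusted 0.026) and -0.486 of Atpase6 (exact permutation p = 0.28, adjusted 0.4).

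As labelled, the mitochondrial comparison pointed up in set B and down in set A. The difference of the 2 comparisons was 1.5 ± 0.327 for Cytb, 1.3 ± 0.315 for Cox2 and 1.3 ± 0.344 for Atpase6 (edgeR over 36 sham libraries, adjusted p = 0.0012, 0.00371 and 0.00839), with 13.3% of all genes called. With library size alone it was 0.91, 0.7 and 0.7, all called, with the median of all genes at -0.555. If the title of a set A library is read as its nucleus, the matching comparison in set B is C3Hn minus C57n, and the 2 sets then differed by 0.32 ± 0.325, 0.24 ± 0.314 and 0.39 ± 0.342, with no call among the 3 and 0.0793% of genes called. This second reading was chosen after the data were seen and uses the same 36 libraries. A miss of the threshold does not show that the sets were equal in it.

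**Figure D3:**
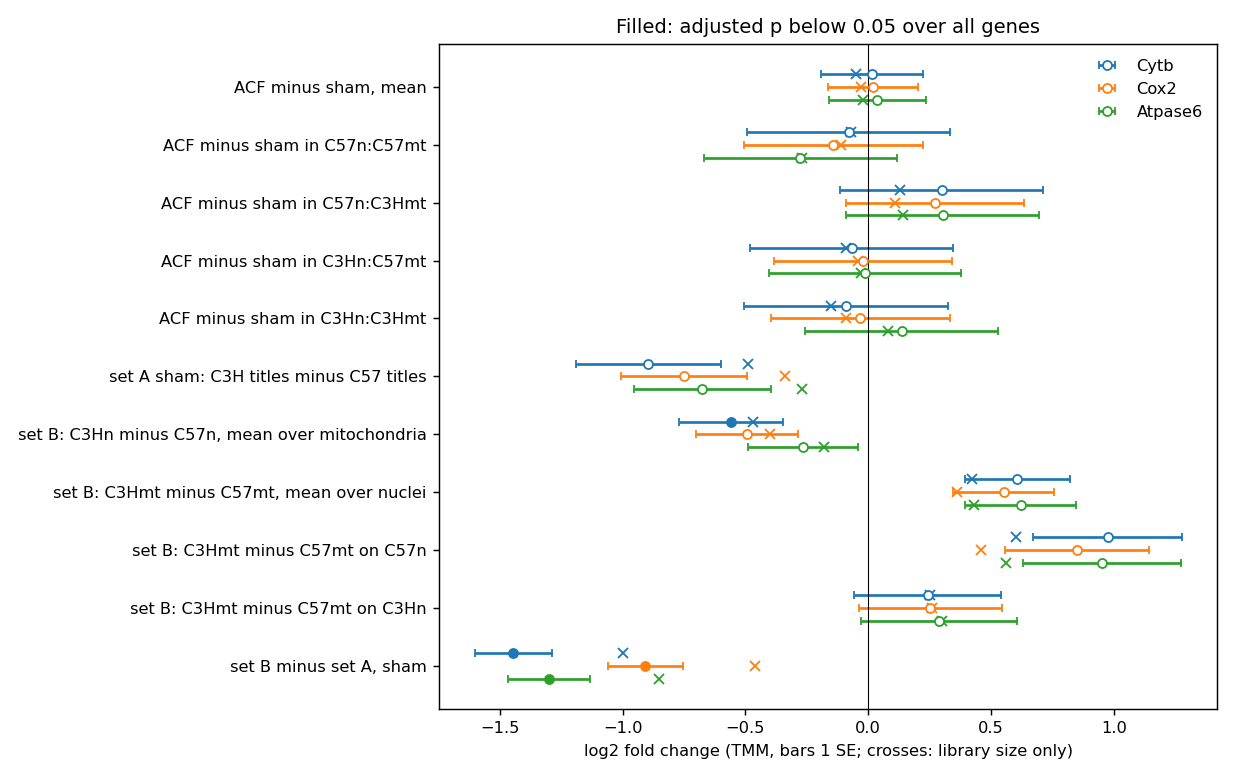
Log2 fold change (horizontal axis) of the 3 transcripts in 11 comparisons, with bars of 1 SE, filled where the adjusted p over all genes was below 0.05, and a cross for the value after scaling by library size alone. All 3 transcripts are filled in the comparison of set B with set A, as is Cytb in the nuclear comparison of set B, and the ACF values lie around 0.

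Relative to Atpase6, Cytb was higher in libraries with a C57 nuclear profile in both sets. In set A the count of Cytb per count of Atpase6 was 1.32 to 1.69 (median 1.43) in the 12 libraries with the C57 profile and 1.00 to 1.34 (median 1.17) in the 12 with the C3H profile, and 1 library of each profile lay inside the other's range. In set B the ratio was 1.22 to 1.44 (median 1.33) on C57n and 1.03 to 1.12 on C3Hn apart from library 18 (C3Hn:C57mt), which had 1.34. In set B both mitochondrial labels lay within each range. In set A every library with the C57 profile is labelled with C57 mitochondria, and every one with the C3H profile with C3H mitochondria. Profile and mitochondrial label cannot be told apart there. The ratio does not depend on the scaling of a library, and since it was noticed in these data it is given without a test. In the wild types of set A the ratio moved in opposite directions with ACF: in C57n:C57mt it was 1.59, 1.64 and 1.69 after ACF and 1.43, 1.44 and 1.44 in sham, and in C3Hn:C3Hmt it was 1.00, 1.06 and 1.11 after ACF and 1.17, 1.21 and 1.34 in sham. In the exchanged groups the ratio overlapped between surgeries, at 1.32 to 1.37 after ACF and 1.35 to 1.44 in sham for the label C3Hn:C57mt, and at 1.13 to 1.25 and 1.17 to 1.25 for the label C57n:C3Hmt. Library 489 gave the 1.69, and without it the C57n:C57mt libraries after ACF were at 1.59 and 1.64. How many ratios of other genes separate the same libraries was not examined. For shares of single genes, ACF and sham libraries did not overlap in 11.5% of the combinations of gene and genotype. Cox2 per Atpase6 separated the profiles less, at 0.776 to 1.10 and 0.665 to 0.837 in set A and 1.05 to 1.26 and 0.893 to 1.10 in set B.

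**Figure D4:**
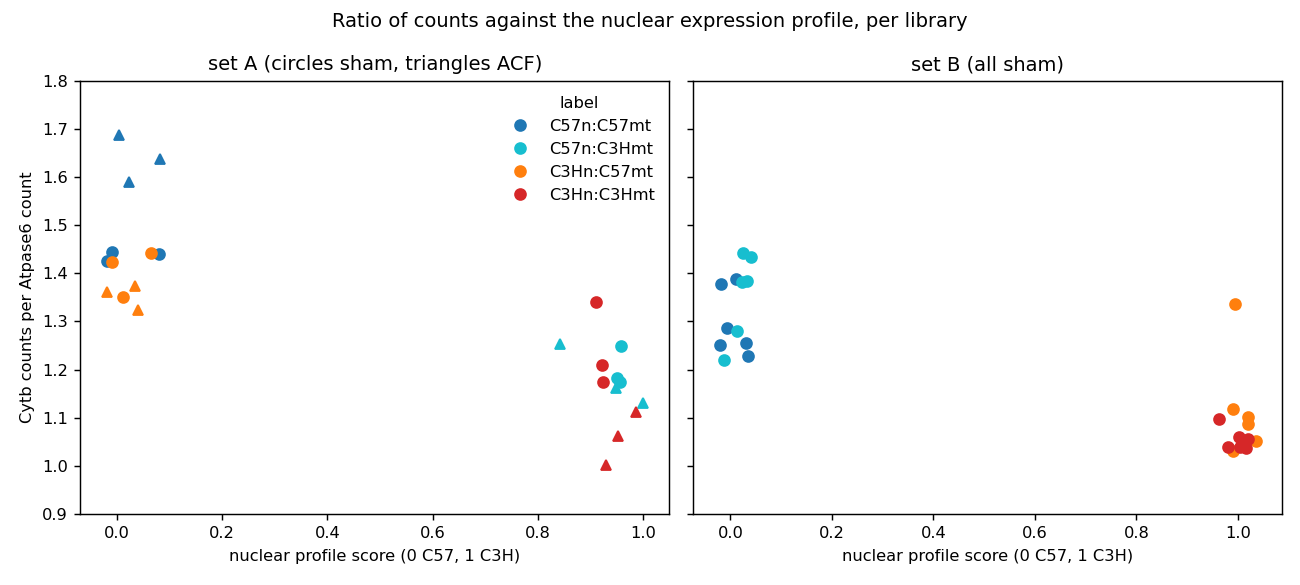
Cytb counts per Atpase6 count (vertical axis, from 0.9) against the nuclear profile score (horizontal axis, 0 for the C57 and 1 for the C3H mean) for each library, coloured by label, set A on the left with ACF as triangles and set B on the right. Libraries at score 0 lie higher in both sets, and library 18 of set B stands apart at 1.34.

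The rows whose pattern across libraries was most like that of the 3 transcripts were each other and a few other abundant rows. Likeness was the lower of the Pearson correlations of TMM log2 CPM within set A and within set B (24 libraries each), over the 9197 rows whose log2 CPM averaged 2 or more. For Cytb the nearest 5 were Gm10222 (0.987), DQ539915 (0.985), Cox2 (0.981), AK018753 (0.972) and AK163440 (0.955). Cox2 was nearest to DQ539915 (0.988), Gm10222 (0.985), Cytb (0.981), AK018753 (0.981) and AK163440 (0.957). Atpase6 had AK163440 (0.977), Gm10222 (0.971), AK018753 (0.967), DQ539915 (0.95) and Cox2 (0.947). Beyond these abundant rows and AK140265, the nearest rows to Cytb were Elk4 and BC071253, both at 0.708. These correlations share the library scaling, and rows of 1 library share its dominant transcripts. What makes these rows alike was not tested. DQ539915 alone took 17.7% of counts on average (8.23% to 26.7%), and AK018753 and AK163440 took 3.65% and 2.29%. Besides the 3 transcripts, Gm10222 and these, the 10 most abundant rows held Myh6, the main cardiac myosin heavy chain (2.71%), Atp2a2, the calcium pump of the sarcoplasmic reticulum (1.53%), and Actc1, cardiac actin (0.732%). None of Myh6, Atp2a2 and Actc1 was among the 5 rows nearest to a transcript.

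Nuclear partner genes of these proteins were compared in the same fits. The 6 lists, with 93 tested genes, covered the nuclear subunits of complex III, complex IV and ATP synthase, the assembly factors of cytochrome b, COX2 and ATP6, and the machineries that transcribe and copy mitochondrial DNA and process its RNA. After ACF 0 of 93 were called in the mean over genotypes (edgeR, 0 at an unadjusted p below 0.05 and 0 by DESeq2), with a median of -0.072 beside 0.001 for all genes, and 0 of 93 is near the 0.275% of all genes called. Within genotypes 0 of 93 were called in each of the 4 comparisons by edgeR and by DESeq2, with 3 (C57n:C57mt), 1 (C3Hn:C3Hmt), 2 (labelled C3Hn:C57mt) and 1 (labelled C57n:C3Hmt) at an unadjusted p below 0.05. The medians in that order were -0.457, 0.28, 0.026 and -0.109, so the mean over genotypes joined lists on both sides of 0. The medians of all genes were 0.012, -0.005, -0.011 and 0.011. The 16 nuclear ATP synthase subunits had values below 0 in 16 of 16 in C57n:C57mt (median -0.623) and above 0 in 16 of 16 in C3Hn:C3Hmt (median 0.419), none called. Without library 489 they were below 0 in 13 of 16 in C57n:C57mt (median -0.137) and still above 0 in 16 of 16 in C3Hn:C3Hmt (median 0.409). Over the 93 genes the C57n:C57mt median without library 489 was -0.039 and that of the mean over genotypes 0.016, and without libraries 489 and 6756 the median labelled C57n:C3Hmt was 0.085, again with 0 called. For C3H mitochondria on the C57 nucleus of set B 0 of 93 were called, as were 0% of all genes (2 of the 93 at an unadjusted p below 0.05, 0 by DESeq2), and the list medians lay between -0.093 and 0.034, where the 3 mitochondrial transcripts had 0.849 to 0.974 without being called. In set A, taken by the labels, 1 of 93 (1.08%) was called on each nucleus, beside 3.65% of all genes on C57n and 3.97% on C3Hn. It was Cox18, higher in libraries labelled with C3H mitochondria by 0.96 on C57n and 0.76 on C3Hn. Those libraries also carry C3H titles and a C3H nuclear profile. In set B no assembly factor was above 0.128 for C3H mitochondria on C57n.

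Between the sets 34 of 93 rose and 19 fell in set B, or 57% called, near the 59.4% of all genes. Among the 9 complex III subunits 3 rose and 2 fell (median -0.004), with Uqcrc1, a core subunit, at 0.68 ± 0.0997 and Uqcrb at -0.37 ± 0.110. Among the 15 subunits of complex IV 1 rose and 5 fell (median -0.05), with Cox4i1, a regulatory subunit, at 0.29 ± 0.0923 and Cox6c at -0.44 ± 0.113. Of 16 ATP synthase subunits 4 rose and 3 fell (median -0.065), Atp5b, the catalytic beta subunit, by 0.41 ± 0.0890. The 3 mitochondrial transcripts, which belong to the same complexes, were at -0.91 to -1.45 in that comparison. Assembly factors had 9 higher and 2 lower of 15, among them Sco1, which delivers copper to COX2, at 0.49 ± 0.0611. Transcription and copying had 8 higher and 4 lower of 18, with Esrra, a nuclear receptor that controls oxidative metabolism genes, at 0.68 ± 0.0528 and its coactivator Ppargc1a at -0.51 ± 0.107. RNA processing and stability had 9 higher and 3 lower of 20, and Lrpprc, which stabilises mitochondrial messengers, fell by 0.30 ± 0.0804.

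By nucleus in set B, 18 of 93 were higher and 6 lower on C3Hn, or 25.8% called beside 35.7% of all genes. Assembly factors showed the widest spread, with 4 higher and 4 lower of 15. Cox18, which inserts the tail of COX2 into the inner membrane, rose by 1.33 ± 0.0956, Lyrm7, a chaperone of the complex III iron-sulphur protein, fell by 0.91 ± 0.0716, Uqcc, needed for cytochrome b assembly, fell by 0.63 ± 0.0711, and Tmem70, an ATP synthase assembly factor, fell by 0.58 ± 0.0618. In set A, C3H titles minus C57 titles called 2 of these 93, or 2.15% beside 8.39% of all genes, Cox18 at 0.86 ± 0.127 and Lyrm7 at -0.98 ± 0.285. Polrmt, the mitochondrial RNA polymerase, was higher on C3Hn by 0.33 ± 0.0742, and Tfam, which packages mitochondrial DNA and starts its transcription, by 0.30 ± 0.0561. Mterfd1, of the mitochondrial termination factor family, was lower, at -0.31 ± 0.0559, and so was Ptcd3, a protein of the mitochondrial ribosome, at -0.59 ± 0.0797. All adjusted p of the genes named from these lists were below 0.05 in edgeR over all genes.

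**Figure D5:**
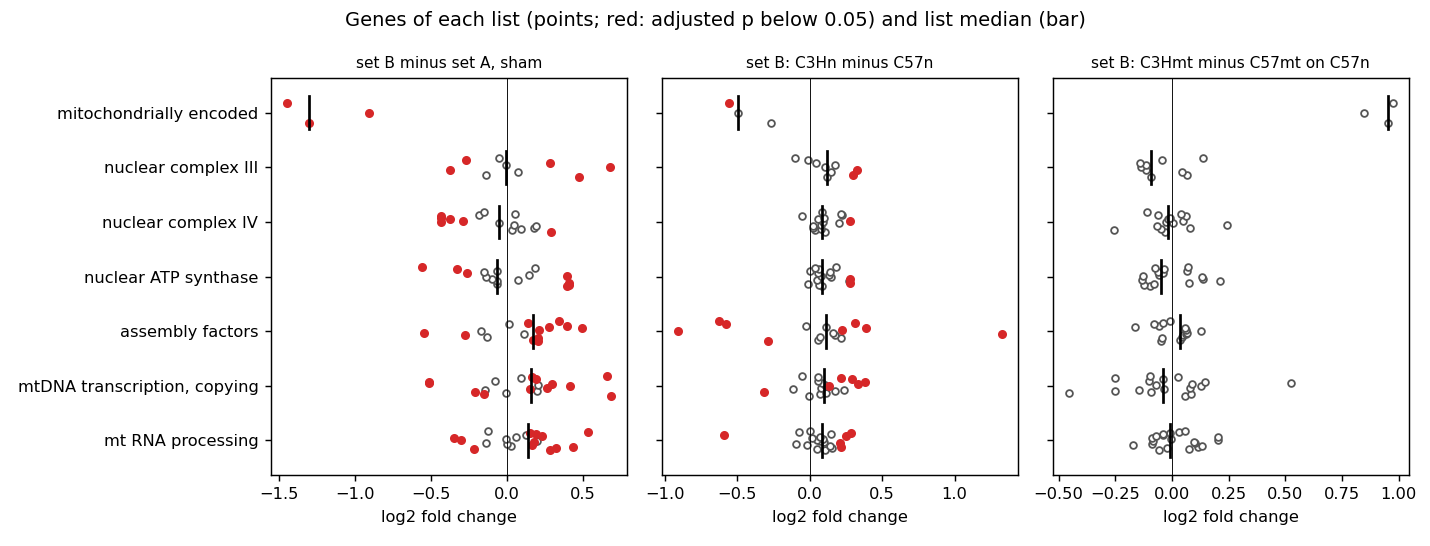
Log2 fold change (horizontal axis) of each gene of 7 lists (rows) in 3 comparisons (panels), red where the adjusted p over all genes was below 0.05, with a bar at the list median. The 3 mitochondrially encoded transcripts lie apart from the lists of nuclear genes in the set comparison and on the C57 nucleus of set B, where none of the 3 is called.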

How the data were processed

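Expected counts per gene symbol (RSEM 1.2.0 and CASAVA 1.8.2, with Bowtie and build mm9, per the submitters' processing notes) were deposited by the authors without normalization. The labels' protocols also describe the sequencing provider's own mapping, and the sources used here do not say which route gave these values. The libraries came from a stranded messenger RNA kit, per the labels' protocols. Of all values 13.9% were not whole, 0 columns belonged to other samples and 0 rows named no gene. The members, gene lists and settings were chosen with earlier results of these data known.

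Counts were rounded and analysed in R 4.3.3 with edgeR 4.0.16 (quasi-likelihood F test, TMM, its filter by group, Benjamini-Hochberg over all genes, threshold 0.05), in 1 model each for set A (13440 genes), set B (13395) and the 36 sham libraries (13869). The SE is the log2 fold change divided by the square root of F. log2 CPM used a prior count of 2. Shares are percent of a library's total count, tested by permutation within strata, 2-sided, adjusted over 6 comparisons per transcript. The fits were tested on simulated data. Alternatives were DESeq2 1.42.0, its size factors, library size alone or without the 3 transcripts, no filter, the L code, other library choices and leaving out each library. Chosen after seeing the data were the title reading, the comparison between sets, the ratios, the shares of genes that do not overlap, the gene lists without libraries 489 and 6756, the splits by L code and the nuclear score (35 genes with a wild-type gap over 1.5 on the log2 scale and a log2 CPM averaging 1 or more).

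Replicate numbers name libraries and none is shared between groups. Whether each library is a separate animal is not given in the sources used here, so p-values measure the spread between libraries. Between libraries of 1 group chi-square per degree of freedom was at least 3.858, so none was counted as a duplicate. Named genes were the 3 transcripts, the 10 rows with the highest mean share, the 5 rows most like each transcript, up to 3 called members per list and direction whose log2 CPM averaged 2 or more, and Rn45s. Elk4, BC071253 and AK140265 fall outside this rule and were named after their values were seen. Copies were sought with blastn in GENCODE transcripts of GRCm38, and no coordinates are given because the files' build differs. The search took the plus strand only and left out hits on 1 chromosome, so the nearest copy is the nearest among the rest.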

Additional observations from a re-analysis of the deposited data

Results flagged for a closer look

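Library 18 (C3Hn:C57mt, set B) had 1.34 Cytb counts per Atpase6 count, where the other 5 libraries of its group had 1.03 to 1.12, and its gap to the nearest of them was 0.718 of the group's range (critical value 0.625). It was the 1 such value among 24 groups and quantities examined, and chance gives about 1 in 20. The ACF change of the same ratio had opposite signs in the wild types of set A, 0.202 in C57n:C57mt and -0.183 in C3Hn:C3Hmt, with every ACF library on one side of the 3 sham libraries in each. This difference was not tested, and how many ratios of other genes separate these libraries was not examined. The labelled mitochondrial comparison differed between the sets by 1.5 (Cytb), 1.3 (Cox2) and 1.3 (Atpase6) on the log2 scale in the interaction test of edgeR.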

How the results depend on the processing

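No paired analysis was possible because the groups share no replicate numbers. The differences between sets and the labelled difference of the mitochondrial comparison between them kept direction and call under every setting run on them. No filter and DESeq2 size factors in edgeR changed no direction or call of the 3 transcripts. Values below are log2 differences in the order Atpase6, Cox2, Cytb where 3 are given, and the cause of each change was not tested. ACF minus sham, the mean over genotypes, turned to -0.02, -0.03 and -0.05 with library size alone, to -0.02, -0.04 and -0.05 with library size without the 3 transcripts, to -0.06, -0.06 and -0.09 without library 489, and to -0.14, -0.15 and -0.19 without libraries 489 and 6756, none called. With the L code it was -0.003 for Cytb. ACF in C57n:C3Hmt turned to -0.04, -0.08 and -0.1 without both libraries. With the L code, ACF in C3Hn:C57mt was 0.09, 0.06 and 0.05, and in C3Hn:C3Hmt 0.27 (Cox2) and 0.24 (Cytb). The ACF response of C3Hn minus C57n was 0.07 and 0.02 for Cox2 and Cytb without 489, 0.24 and 0.22 without both, and 0.32 and 0.29 with the L code, which also gave 0.21 and 0.2 for C3Hn:C3Hmt minus C3Hn:C57mt.

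In set B, Cytb on C57n was called at 0.6 and 0.68, and Cox2 by nucleus at -0.4 and -0.44, under the 2 library-size scalings, which turned the Cox2 difference by nucleus and title between sets to -0.06 and -0.01. With the L code the nuclear comparison turned to 0.91, 0.61 and 0.38. The Cytb call by nucleus was lost with DESeq2 (-0.57) and with all 36 sham libraries (-0.33), which put the mitochondrial difference on C3Hn at -0.09, -0.17 and -0.21. DESeq2 called set A titles at -0.67, -0.74 and -0.89, the labelled mitochondrial difference on C3Hn at -0.84 (Cox2) and -0.92 (Cytb), and on C57n at -0.86 (Cytb).

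Leaving out 1 library at a time gave these ranges. ACF mean: -0.06 to 0.11, -0.07 to 0.07 and -0.09 to 0.08. ACF in C57n:C57mt: -0.65 to 0.001, -0.45 to 0.05 and -0.49 to 0.2. ACF in C3Hn:C3Hmt, Cox2: -0.12 to 0.04. ACF in C3Hn:C57mt: -0.11 to 0.09, -0.09 to 0.09 and -0.16 to 0.02. ACF in C57n:C3Hmt: -0.04 to 0.48, -0.08 to 0.45 and -0.11 to 0.5. ACF response, C57n:C3Hmt minus C57n:C57mt, Cytb: -0.02 to 0.78. C3Hn:C3Hmt minus C3Hn:C57mt, Cox2 and Cytb: -0.13 to 0.06 and -0.11 to 0.07. C3Hn minus C57n: -0.09 to 0.24, -0.19 to 0.09 and -0.33 to 0.02. Set A titles: -0.73 to -0.6, -0.79 to -0.67 and -0.94 to -0.84. Labelled mitochondria on C3Hn in set A, Cox2 and Cytb: -0.92 to -0.71 and -1.02 to -0.83. Mitochondria on C3Hn in set B: 0.1 to 0.69, 0.05 to 0.62 and 0.05 to 0.61. Nucleus in set B, Cox2 and Cytb: -0.68 to -0.39, called without library 15 or 24, and -0.74 to -0.47, with the call lost without any 1 of libraries 3, 5 to 8, 13, 14, 16 to 20, 22 and 23.

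Counts of all genes called moved most with scaling: set A titles 1128 to 4071 with library size alone and 2689 without the 3 transcripts, mitochondria on C57n of set B 0 to 4913 and 2714, the difference of nuclei 0 to 1389 and 1302 (331 by DESeq2), the labelled difference between sets 1843 to 8501 and 6712, mitochondria in set A 533 to 1510 and 1014 on C3Hn and 491 to 751 on C57n. The nuclear comparison of set B fell from 4776 to 1399 with the L code and 2620 with 36 libraries, and the set comparison from 8237 to 5258 in wild types. Mean ACF calls rose from 37 to 125 without library 489 and 344 without both, and were 24 with library size alone and 244 by DESeq2. In C3Hn:C3Hmt they rose from 0 to 69 and 192. Leaving out 1 library gave 12 to 174 mean ACF calls and, for the difference of nuclei in set B, 422 without library 5. Depth did not limit the 3 transcripts, which had at least 407362 counts.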
